A study of Mus musculus with 3 samples.

Results

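The genes described here are 10 transcripts of the heat shock response and of the response to mild cold: Hspa1a, Hspa1b, Hspa8, Hsph1, Hsp90aa1, Dnajb1, Hspd1, Hspe1, Rbm3 and Cirbp. They were looked up by symbol among the 55293 gene symbols of the deposited count table, and each of the 10 was found. They were chosen by their measured levels in these libraries, CPM (counts per 1000000 counts) and share of cells with a count by genotype, so these values are given as a description with no test. Expression had been measured in single cells of dissociated mouse pituitaries of 3 genotypes, TpitKO, TpitHT and TpitWT, written KO, HT and WT below. Tbx19 encodes Tpit, a transcription factor needed for the Pomc-expressing lineages of the pituitary. The meaning of HT, the nature of the Tpit allele, and the age, sex and number of mice behind a library are not given in the labels. Each genotype is a single library, so animals, dissection and genotype cannot be told apart.

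The labels give the same protocol for the 3 libraries. Freshly dissected glands were digested in 0.25% trypsin at 37 °C for 10 min and incubated for another 5 min at that temperature, cells that took up propidium iodide were sorted away, and Chromium 3′ v3 libraries were prepared with the aim of 10000 cells each. The libraries held 13413 KO cells, 12839 HT cells and 11222 WT cells. Mean depth was 9935 counts per cell in KO, 11869 in HT and 9561 in WT, and mitochondrial genes took 1.74%, 1.59% and 1.64% of counts in the same order. Tbx19 was read at 0.690 CPM in KO, 12.4 CPM in HT and 17.6 CPM in WT, and Pomc at 58.3, 22576 and 21846 CPM in the same order, so both followed the KO label. The Y-linked gene Ddx3y had 71.9 CPM in KO, 63.4 CPM in HT and 68.3 CPM in WT. Xist had 18, 19 and 14 counts in the same order, so the libraries were alike in these sex-linked genes. The authors' cells fall into 21 clusters, of which 15 met a list of marker genes and are called lactotrope-like, somatotrope-like and so on here. KO had no cells in the corticotrope-like cluster 6 and the melanotrope-like cluster 7 and 17 in the somatotrope-like cluster 2. Across the libraries, 115 cell barcodes occurred in more than 1 library. Hemoglobin genes and the red cell enzyme gene Alas2, which mark red cells, summed to 152 CPM in KO, 177 CPM in HT and 18.4 CPM in WT.

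Heat shock proteins are chaperones that bind unfolded proteins. Under heat or other protein damage the transcription factor HSF1 binds repeats of the motif nGAAn in front of the inducible genes and drives their transcription. The HSP70 chaperones hold the client, DNAJ proteins deliver it, HSP110 proteins exchange the nucleotide, HSP90 completes folding, and the HSPD1 and HSPE1 chaperonin works inside mitochondria. Rbm3 and Cirbp encode RNA-binding proteins with a glycine-rich tail that accumulate when mammalian cells are cooled mildly and are reduced by warming. In dissociated tissue, heat shock and immediate early transcripts are well known to be induced by enzyme digestion.

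The sequences in front of these genes show which of them carry letters of the HSF1 motif close to the start. RefSeq windows of 250 bases upstream of the start, on GRCm38.p6, were matched by symbol for 7 of the 10 genes and are not used here for Hspa8, Hsp90aa1 and Rbm3. Both strands were searched for the inner palindromes of a heat shock element, GAANNTTC and TTCNNGAA, for CCAAT, for TATAAA, and for TCCCCGCC, an octamer reported as a mild-cold response element of Cirbp. The stretches below hold the palindrome matches and the octamer match of Cirbp, with the matching letters in capitals.
Hspa1a, chr17:34972242-34972271, minus strand: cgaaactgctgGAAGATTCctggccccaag
Hspa1b, chr17:34959324-34959353, minus strand: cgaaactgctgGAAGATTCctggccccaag
Hsph1, chr5:149636351-149636380, minus strand: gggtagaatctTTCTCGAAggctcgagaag
Hspe1, chr1:55088053-55088082, plus strand: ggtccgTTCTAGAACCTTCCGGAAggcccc
Cirbp, chr10:80167589-80167618, plus strand: ctgTCCCCGCCtcctagtcgctagcgggcg
The first 4 stretches hold heat shock palindromes and the Cirbp stretch holds the octamer. GAANNTTC occurs in 6.69% and TTCNNGAA in 7.17% of the 32851 RefSeq windows of this length, and 12.8% hold either. Hspe1 had 3 overlapping palindromes in a run of 18 bases, where the other matching genes had 1. The windows of Dnajb1, Hspd1 and Cirbp held neither palindrome, which says only that these letters are not in 250 bases. The octamer occurs in 4.64% of windows, and besides Cirbp, where it begins 247 bases before the start, it was found in Hspa1a and Hspa1b 137 bases before the start. CCAAT, found in 33.8% of windows, was held by the windows of Hspa1a, Hspa1b, Hsph1, Dnajb1 and Cirbp, while TATAAA, found in 12.4%, was held by none of the 7 windows. For Cirbp, Hsph1 and Hspe1 the RefSeq start lies inside the bounds of the deposited gene, so their windows reach into it. The printed stretches of Cirbp and, in part, of Hsph1 lie inside those bounds, and that of Hspe1 lies in front of them. Hspd1 and Hspe1 overlap at their starts. The Hspd1 window, chr1:55088244-55088493, lies inside the bounds of Hspe1, chr1:55088132-55091307. The Hspe1 stretch lies inside those of Hspd1, chr1:55077835-55088243. Its palindromes are therefore near the Hspd1 start too, on the side that the Hspd1 window does not cover.

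Hspa1a and Hspa1b, the stress-inducible HSP70 genes, lie on chr17:34969190-34972156 and chr17:34956436-34959238, both on the minus strand. Their upstream windows were identical at 247 of 250 bases, or 98.8%. The 3 differences were C44T, T47C and T249G, counted from the 5′ end of the window with the Hspa1a base first. Neither gene shared a 91-base window, the length of the cDNA read, with another gene in the last 500 bases of its transcript, where 3′ reads fall. Reads of the pair can therefore be told apart there, although the authors' counting rule is not given in the sources used here.

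Levels over all cells separated 3 of the genes from the other 7. Hspa1a had 172 CPM in KO and 158 CPM in HT, against 75.2 CPM in WT. That is 2.29 times the WT level in KO (95% counting interval 2.24 to 2.35) and 2.11 times in HT (2.06 to 2.16). Hspa1b had 111 CPM in KO and 100.5 CPM in HT, against 51.4 CPM in WT, with ratios of 2.16 (2.10 to 2.23) and 1.96 (1.90 to 2.02) for KO and HT over WT. For both genes KO and HT stood close together and WT stood apart, and KO over HT was 1.09 (1.07 to 1.11) for Hspa1a and 1.11 (1.08 to 1.13) for Hspa1b. These intervals cover counting error only, take every count as independent, and leave out variation between cells and animals, so they are too narrow.

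Rbm3, on chrX:8138975-8145880 on the minus strand, also stood higher in KO and HT. It was read at 125 CPM in KO and 112 CPM in HT, against 52.6 CPM in WT. Ratios over WT were 2.37 (2.30 to 2.45) in KO and 2.13 (2.07 to 2.20) in HT, and KO over HT was 1.11 (1.09 to 1.14). Over all cells the heat-inducible HSP70 pair and the cold-inducible Rbm3 thus shared the order KO, HT, WT, with WT far below both. Each ratio over WT uses the same WT library. Cirbp, on chr10:80165985-80172786 on the plus strand, had 106 CPM in KO, 91.4 CPM in HT and 77.2 CPM in WT. Its ratios over WT were smaller, 1.38 (1.34 to 1.41) in KO and 1.18 (1.15 to 1.22) in HT.

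The other chaperones did not show that order. Hspa8, the constitutive HSP70 gene on chr9:40800984-40810087 (plus strand), had 394 CPM in KO, 446 CPM in HT and 402 CPM in WT. Its KO over WT ratio of 0.979 (0.967 to 0.992) went above 1 with the authors' scaled counts and without the clusters that met no marker list (log2 ratios of 0.10 and 0.18), and HT over WT was 1.11 (1.09 to 1.12). Dnajb1, a DNAJ co-chaperone of HSP70 on chr8:83608193-83612653 (plus strand), had 236 CPM in KO, 243 CPM in HT and 200.2 CPM in WT, with ratios over WT of 1.18 (1.16 to 1.20) in KO and 1.21 (1.19 to 1.24) in HT. Dnajb1 thus stood above WT in both genotypes, by less than the HSP70 pair. With the authors' scaled counts its log2 ratio of HT over WT was 0.04 in place of 0.27, so HT then lay close to WT.

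Hsph1, an HSP110 exchange factor on chr5:149614287-149636376 (minus strand), was lower in KO. It had 111 CPM in KO, 161 CPM in HT and 151 CPM in WT. KO over WT was 0.739 (0.723 to 0.756), KO over HT was 0.693 (0.679 to 0.707), and HT over WT was 1.07 (1.05 to 1.09) but below 1 with the authors' scaled counts. Hsp90aa1, the inducible cytosolic HSP90 gene on chr12:110690605-110702728 (minus strand), had 648 CPM in KO, 790.3 CPM in HT and 873 CPM in WT. Its ratios over WT were 0.743 (0.736 to 0.750) in KO and 0.905 (0.898 to 0.913) in HT, so it lay below WT in both genotypes where Hspa1a lay above.

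Hspd1 and Hspe1 encode the large and small subunits of the mitochondrial chaperonin and lie head to head on chr1:55077835-55088243 (minus strand) and chr1:55088132-55091307 (plus strand), overlapping by 112 bases. Hspd1 had 172 CPM in KO, 182 CPM in HT and 194 CPM in WT. Its KO over WT ratio of 0.889 (0.873 to 0.906) went just above 1 with the authors' scaled counts. Hspe1 had 296 CPM in KO, 347 CPM in HT and 345 CPM in WT, and KO over WT was 0.860 (0.848 to 0.872). HT over WT was 0.938 (0.921 to 0.955) for Hspd1 and 1.01 for Hspe1, whose interval of 0.992 to 1.02 spans 1. Neither subunit gene stood as far from WT as the HSP70 pair or Rbm3 did.

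**Figure D1:**
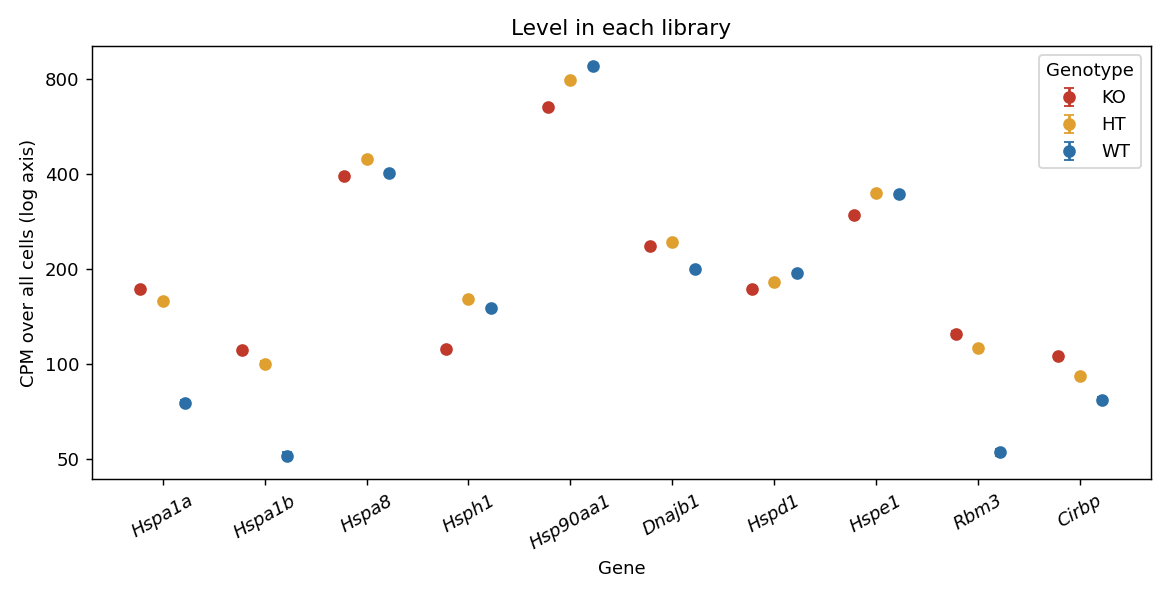
Level of each of the 10 genes over all cells in CPM (log axis), with KO, HT and WT from left to right and bars for 95% counting intervals, which the points cover. Hspa1a, Hspa1b and Rbm3 have WT at 51.4 to 75.2 CPM, below KO and HT at 100.5 to 172 CPM, while Hsp90aa1 is highest in WT at 873 CPM.

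For counts of genes, a log2 ratio (after adding 10 CPM to both values) that reached 0.5 in size was called past the fold. Over WT, 3 of the 10 genes (Hspa1a, Hspa1b, Rbm3) were past the fold on the higher side in KO, where 1.05% of the 21791 genes with at least 50 counts in the pair were, and 0 on the lower side, where 0.569% were. In HT the same 3 genes were past it on the higher side, with 0.12% of 21624 genes, and 0 on the lower side, with 0.074%. For KO over HT, 0 of the 10 were past it on the higher side, with 0.734% of 22214 genes, and 0 on the lower side, with 0.41%. Because the genes were picked for this difference, and both contrasts use the same WT library, nothing is read from these shares. The median log2 ratio of the 10 was 0.10 for KO over WT, 0.18 for HT over WT and -0.06 for KO over HT, beside 0.02, 0.00 and 0.02 over the genes counted. Without the 6 clusters that met no marker list, Dnajb1 also passed the fold in KO over WT, with a log2 ratio of 0.52 in place of 0.23. The share of all genes was not recomputed without those clusters.

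The excess over WT ran through the clusters more evenly for Rbm3 than for the HSP70 pair, by the standard deviation of the log2 ratio over clusters. These log2 ratios also have 10 CPM added, which lowers them where levels are low, and were not recomputed with another amount. Clusters with at least 50 cells in both libraries numbered 13 for KO and WT, 15 for HT and WT, and 12 for KO and HT. Rbm3 was higher in KO than in WT in 13 of 13 clusters and higher in HT than in WT in 15 of 15, each with its counting interval above 1. Its log2 ratios had a median of 1.30 for KO over WT, with a lowest value of 0.68 in somatotrope-like cluster 1 and a highest of 2.00 in cluster 13. For HT over WT the median was 1.06, the lowest 0.49, also in cluster 1, and the highest 1.55, again in cluster 13. The standard deviation of the log2 ratio over clusters was 0.35 for KO over WT and 0.31 for HT over WT. Among the 1849 genes with at least 50 counts of the pair in each of the 13 clusters, 2.76% were higher in KO in each of them, and 0.973% lower. Of the 10 genes 9 met that count, and 1, Rbm3, was higher throughout.

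In lactotrope-like cluster 0 Rbm3 had 159 CPM in KO, 150.2 CPM in HT and 61.1 CPM in WT. Gonadotrope-like cluster 3 had 123 CPM in KO, 80.9 CPM in HT and 39.1 CPM in WT, with the largest log2 ratio of KO over HT of the compared clusters for this gene, 0.54. In stem cell-like cluster 10 the values were 192 CPM in KO, 157 CPM in HT and 67.6 CPM in WT. Thyrotrope-like cluster 14 had 178 CPM in KO, 181 CPM in HT and 66.6 CPM in WT, and fibroblast-like cluster 15 had 145, 140.1 and 41.7 CPM in the same order. Hormone cells, stem cells and stroma thus shared the order with WT lowest, and over the 12 clusters with 50 cells in each library WT was the lowest in 12. Macrophage-like cluster 8 had a smaller gap, with 118 CPM in KO, 97.4 CPM in HT and 60.1 CPM in WT. The highest level was in lymphoid-like cluster 16, with 338 CPM in KO and 124 CPM in WT, where HT had 17 cells and is not compared. In clusters with no or few KO cells HT was likewise above WT: corticotrope-like cluster 6 had 102 CPM in HT and 57.1 CPM in WT, melanotrope-like cluster 7 had 96.6 CPM in HT and 41.0 CPM in WT, and somatotrope-like cluster 2 had 106 CPM in HT and 58.9 CPM in WT. Cluster 5, with 2457 KO cells and under 50 in the other libraries, had 113 CPM in KO.

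Hspa1a was higher in HT than in WT in 15 of 15 clusters and higher in KO than in WT in 12 of 13, but by amounts that varied more. Log2 ratios for KO over WT went from -0.92 in cluster 11 to 1.93 in endothelial-like cluster 9, with a median of 1.27 and a standard deviation of 0.78. For HT over WT they went from 0.32 in gonadotrope-like cluster 3 to 2.13 in cluster 9, with a median of 0.82 and a standard deviation of 0.44. In HT over WT, 1118 genes had 50 counts in each of the 15 clusters, of which 3.94% were higher in each and 1.52% lower. Of the 10 genes 7 met that count and 1, Rbm3, was higher throughout. Without the count filter Hspa1a and Hspa1b were too, but no share of all genes was computed without it.

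Endothelial-like cluster 9 held the highest Hspa1a level of the compared clusters in KO and HT, with 714 CPM in KO, 823 CPM in HT and 181 CPM in WT. Macrophage-like cluster 8 had 197 CPM in KO, 94.9 CPM in HT and 49.4 CPM in WT. In somatotrope-like cluster 1, where the gene was lowest, the values were 42.1 CPM in KO, 22.9 CPM in HT and 9.61 CPM in WT, a KO over WT ratio of 4.38 (3.60 to 5.37). Large relative differences therefore occurred at both ends of the range of levels. In lactotrope-like cluster 0 Hspa1a had 308 CPM in KO, 249 CPM in HT and 137 CPM in WT, and this cluster held 39.4% of the Hspa1a counts of KO, 52.4% of those of HT and 50.7% of those of WT. Gonadotrope-like cluster 3 differed least of the named clusters, with 167 CPM in KO, 192 CPM in HT and 151 CPM in WT, and a KO over WT ratio of 1.11 (1.02 to 1.20). Corticotrope-like cluster 6 had 247 CPM in HT and 118 CPM in WT, and melanotrope-like cluster 7 had 155 CPM in HT and 94.8 CPM in WT.

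Cluster 11 was the exception, with 126 CPM of Hspa1a in KO, 630.3 CPM in HT and 248 CPM in WT. It met no marker list, its leading genes include Klk1, Cck and Cdkn1c, and it held 871 KO cells but 107 HT and 53 WT cells. A count of Hspa1a was seen in 30.9% of its KO cells, 48.6% of HT cells and 30.2% of WT cells, so the share of cells did not put KO below WT. Hspa1b in the same cluster had 83.8 CPM in KO, 488 CPM in HT and 73.3 CPM in WT. Its own exception was stem cell-like cluster 10, with 102 CPM in KO, 181 CPM in HT and 137 CPM in WT. Over the compared clusters log2 ratios of Hspa1b over WT reached 2.29 in KO, in thyrotrope-like cluster 14, and 2.58 in HT, in cluster 11. The KO over WT interval of Hspa1b spanned 1 in gonadotrope-like cluster 3, at 1.01 (0.936 to 1.10), and in cluster 11, at 1.14 (0.760 to 1.80). The HT over WT interval spanned 1 in melanotrope-like cluster 7, at 1.09 (0.977 to 1.21), and in cluster 12, at 1.26 (0.593 to 2.74). In the 12 clusters with all 3 libraries, WT was the lowest of the 3 in 11 for Hspa1a and in 11 for Hspa1b. KO was above HT in 7 of the 12 for Hspa1a and in 8 for Hspa1b, so the order of KO and HT varied.

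**Figure D2:**
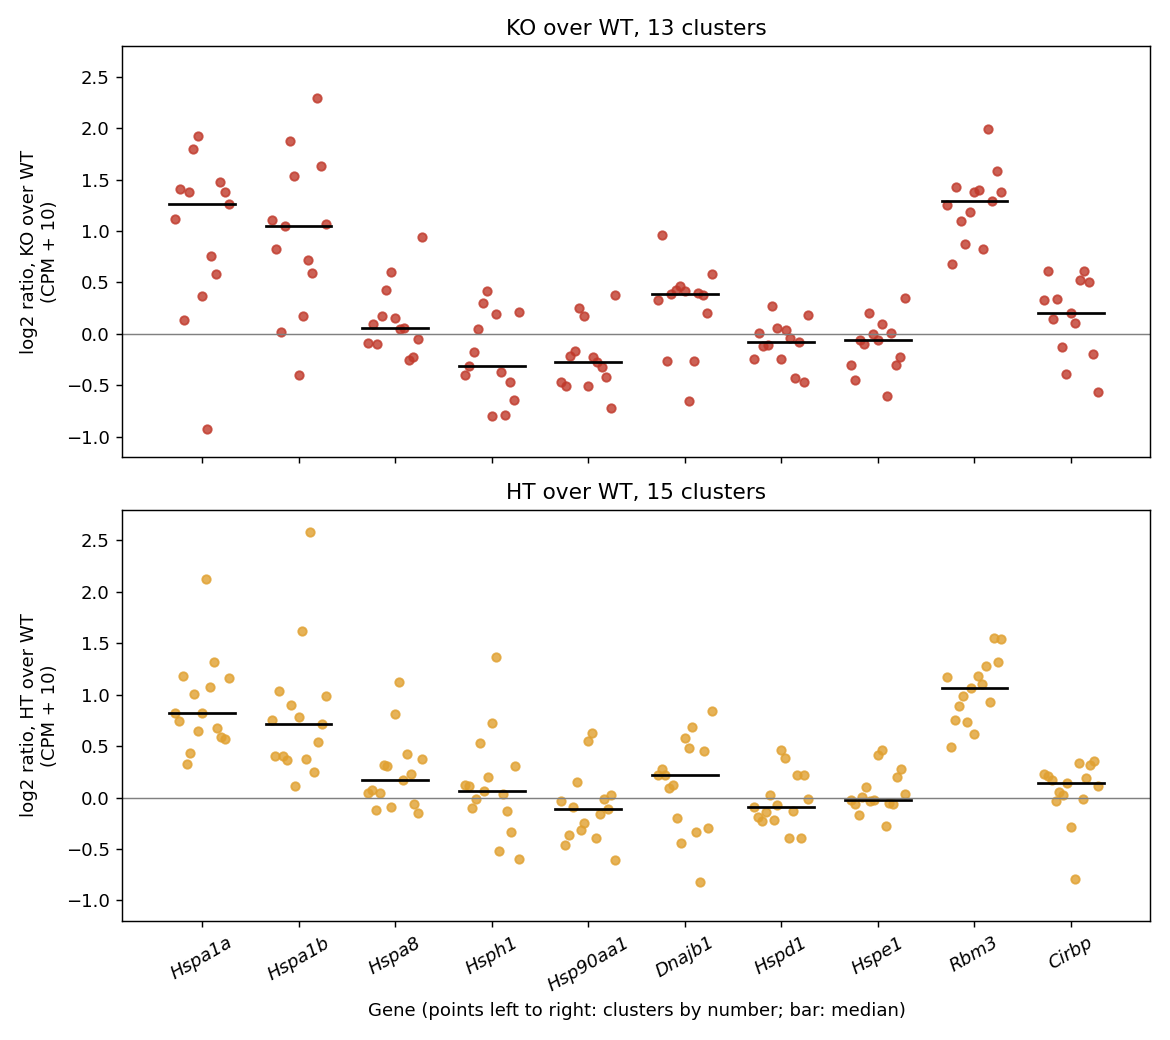
Log2 ratio of CPM + 10 of each gene in each compared cluster, with KO over WT and HT over WT drawn as separate sets of points. Rbm3 lies above 0 in 13 of 13 clusters for KO and 15 of 15 for HT, whereas Hspa1a reaches from -0.92 to 1.93 for KO over WT and Hsp90aa1 lies mostly below 0.

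Hsp90aa1 was lower in KO than in WT in 10 of 13 clusters, each with its interval below 1. It was lower in HT than in WT in 11 of 15, in 9 of them with its interval below 1. In lactotrope-like cluster 0 it had 681 CPM in KO, 921 CPM in HT and 943 CPM in WT, and in stem cell-like cluster 10 it had 960.2 CPM in KO, 1043 CPM in HT and 1372 CPM in WT. KO was below HT in 12 of 12 clusters, where 1.05% of 2576 genes were lower in each cluster and 1.09% higher. The interval of KO over HT lay below 1 in 9 of the 12 and spanned 1 in clusters 1, 11 and 15. The 3 clusters in which KO stood above WT were macrophage-like cluster 8, endothelial-like cluster 9 and lymphoid-like cluster 16. In cluster 9 Hspa8 had 755 CPM in KO, 1089 CPM in HT and 495 CPM in WT, and Hsph1 had 105 CPM in KO, 213 CPM in HT and 76.3 CPM in WT. In cluster 8 Hspa8 had 470.4 CPM in KO, 617 CPM in HT and 348 CPM in WT, and Hsph1 had 55.2, 77.8 and 43.1 CPM in the same order. In these endothelial-like and macrophage-like cells Hspa8, Hsph1 and Hsp90aa1 thus lay above WT in both genotypes and further above it in HT than in KO, except that the KO over WT interval of Hsph1 in cluster 8, 0.904 to 1.84, spans 1. In cluster 16 that of Hsph1, 0.747 to 1.93, spans 1 too.

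Cirbp did not follow Rbm3 in these cells. It was lower in KO than in WT in clusters 8, 9, 15 and 16, with no interval below 1, and higher in the other 9 of 13. In endothelial-like cluster 9 it had 50.7 CPM in KO, 36.1 CPM in HT and 69.6 CPM in WT, and HT over WT was 0.518 (0.339 to 0.789). Rbm3 in the same cells had 168 CPM in KO, 168 CPM in HT and 68.3 CPM in WT. In lactotrope-like cluster 0 both cold-inducible genes were higher, Cirbp with 129 CPM in KO, 119.5 CPM in HT and 100.3 CPM in WT. Its highest KO over WT log2 ratio was 0.61, in somatotrope-like cluster 1.

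The remaining genes were mixed across clusters. Dnajb1 was higher than WT in 10 of 13 clusters in KO and in 10 of 15 in HT, with log2 ratios from -0.65 in cluster 11 to 0.96 in cluster 1 for KO. In lactotrope-like cluster 0, where it was among the highest, it had 469.5 CPM in KO, 435 CPM in HT and 371 CPM in WT. Hspd1 was higher in 5 of 13 and 5 of 15 clusters, Hspe1 in 4 of 13 and 7 of 15, Hsph1 in 5 of 13 and 9 of 15, and Hspa8 in 8 of 13 and 11 of 15, for KO and HT over WT. For these 4 genes the sign changed from cluster to cluster, and the log2 ratios for KO over WT lay between -0.79 and 0.95.

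**Figure D3:**
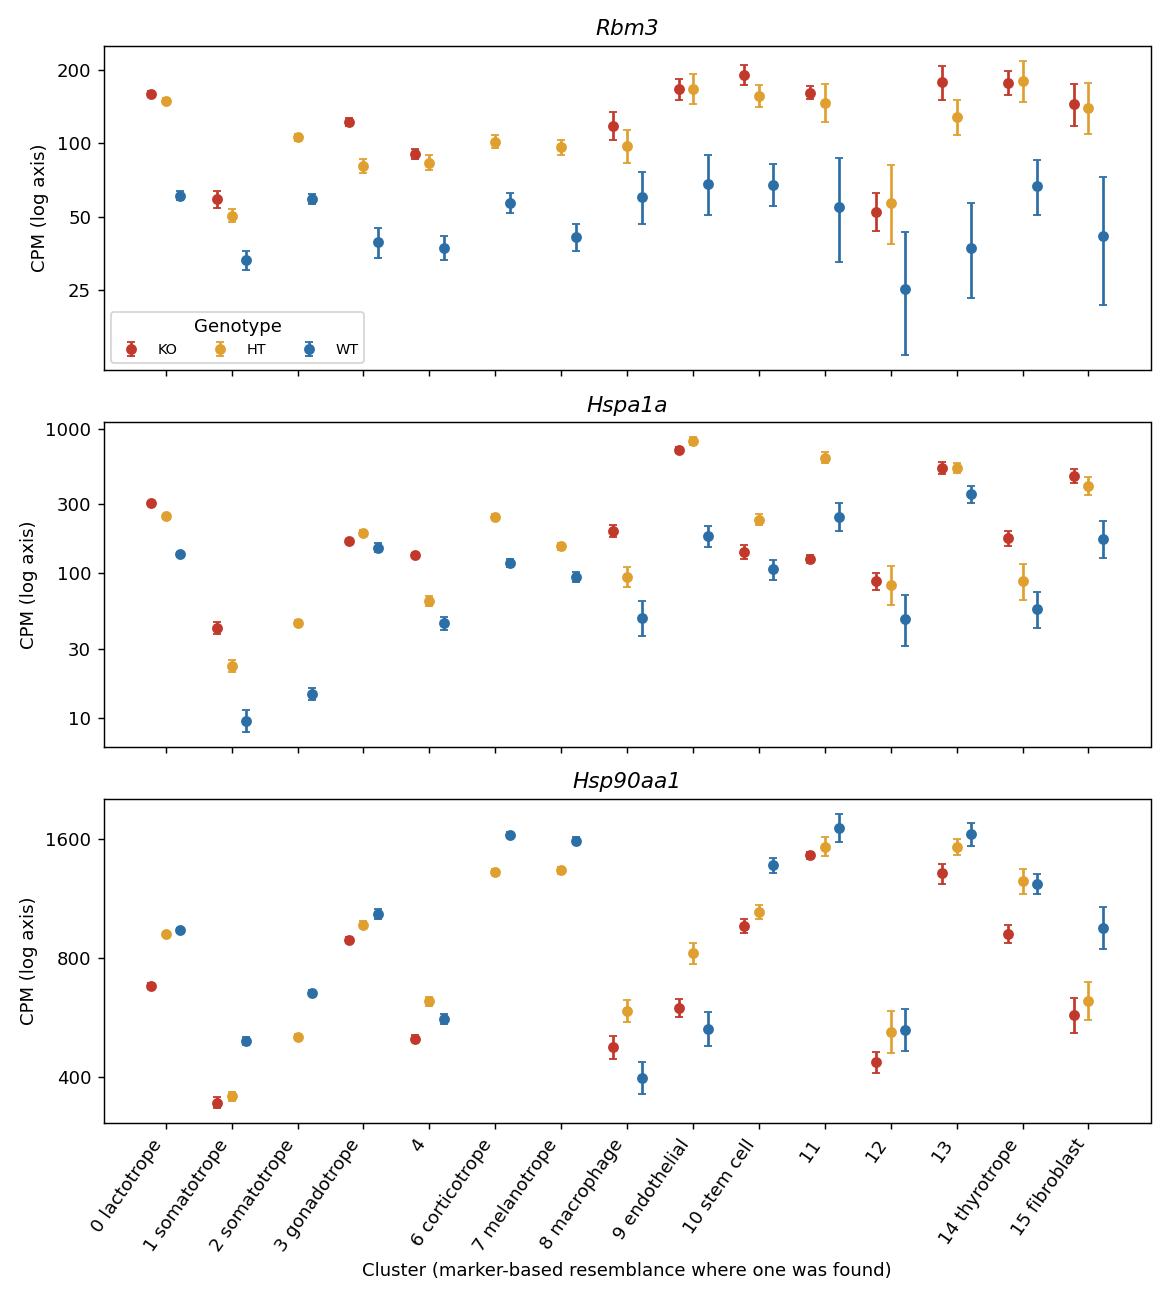
Level in CPM (log axis) of Rbm3, Hspa1a and Hsp90aa1 in 15 clusters, with KO, HT and WT points from left to right and bars for 95% counting intervals; libraries with under 50 cells in a cluster are left out. WT lies lowest for Rbm3 in the 12 clusters held by the 3 libraries, KO goes from 42.1 CPM in cluster 1 to 714 CPM in cluster 9 for Hspa1a, and WT is highest for Hsp90aa1 in 8 of the 12.

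Levels of a gene also differed between clusters within a library, over the 12 clusters held by the 3 libraries. Hspa1a was highest in endothelial-like cluster 9 in KO and HT, but in WT clusters 13 (353 CPM) and 11 (248 CPM) lay above it. Somatotrope-like cluster 1 was lowest for Hspa1a in each library. Ordered by the mean over the 3 libraries, 10 of its 11 neighbouring pairs of clusters overlapped in their ranges. The highest Rbm3 level was in cluster 10 in KO, cluster 14 in HT and cluster 9 in WT, and 11 of 11 neighbouring pairs overlapped. Hsp90aa1 was highest in cluster 11 in each library, and lowest in cluster 1 in KO and HT and in macrophage-like cluster 8 in WT, with 10 of 11 pairs overlapping. Hsph1 likewise was lowest in cluster 1 in KO and HT and in cluster 8 in WT.

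Cell composition differs between the libraries, so each ratio was also computed with the same cluster weights in both genotypes. Over the clusters with at least 50 cells in both libraries, weighted by their mean share of counts, Hspa1a was at 1.98 times WT in KO and 1.89 times in HT. Hspa1b was at 1.85 and 1.75 times, and Rbm3 at 2.58 and 2.11 times, in the same order. The KO over WT ratio of Rbm3 was thus larger than over all cells and those of the HSP70 pair smaller, with both the weights and the set of clusters changed. The same 3 genes stayed past the fold in both contrasts, for which the share of all genes was not computed with these weights. Hsp90aa1 was at 0.784 of WT in KO and 0.885 in HT, Hsph1 at 0.815 and 1.05, Cirbp at 1.24 and 1.13, and Dnajb1 at 1.19 and 1.11, again KO before HT. With such weights KO over HT was 1.07 for Hspa1a, 1.01 for Hspa1b and 1.13 for Rbm3. With equal weight for each cluster its log2 ratio was -0.14 for Hspa1a, -0.13 for Hspa1b and 0.16 for Rbm3.

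The share of cells with a count is a second readout of the same libraries. For Hspa1a it was 37.6% of cells in KO, 39.3% in HT and 21.6% in WT (Clopper-Pearson interval for WT 20.8% to 22.3%). Rbm3 was seen in 56.8% of KO cells, 58.3% of HT cells and 30.9% of WT cells, and Hspa1b in 30.9%, 30.9% and 17.01% in the same order. More cells with a count and more counts per such cell both entered the difference: Hspa1a averaged 4.56 counts per positive cell in KO, 4.78 in HT and 3.33 in WT, and Rbm3 averaged 2.18, 2.29 and 1.63. Cirbp was seen in 49.8% of KO cells, 49.8% of HT cells and 40.8% of WT cells. Hsp90aa1 was seen in 93.1% of KO cells, 96.0% of HT cells and 95.4% of WT cells, near the ceiling, but with 6.92 counts per positive cell in KO, 9.77 in HT and 8.75 in WT. Hsph1 was seen in 49.6% of KO cells, 66.7% of HT cells and 57.7% of WT cells, Dnajb1 in 54.1%, 58.8% and 47.6%, and Hspd1 in 65.3%, 72.6% and 68.8%. HT is deeper per cell than both others, which raises its shares and its counts per positive cell. No cell type here is known to lack these transcripts, so no background share from free RNA was set.

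Counts of the HSP70 pair were concentrated in fewer cells than even placement would give. If the counts of each cluster had been spread evenly at random over its cells, 73.3% of KO cells, 72.7% of HT cells and 44.9% of WT cells would have had an Hspa1a count, against the 37.6%, 39.3% and 21.6% observed. For Rbm3 the even-placement shares were 68.4% in KO, 70.0% in HT and 38.4% in WT, closer to the 56.8%, 58.3% and 30.9% observed. Dnajb1 was concentrated too, with 81.6% of KO cells, 83.3% of HT cells and 74.2% of WT cells under even placement. The gap between the observed and the even-placement share was thus wider for Hspa1a than for Rbm3 in each of the 3 libraries. Differences in depth between cells and counts not collapsed to molecules also lower the observed share, and their part was not tested.

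**Figure D4:**
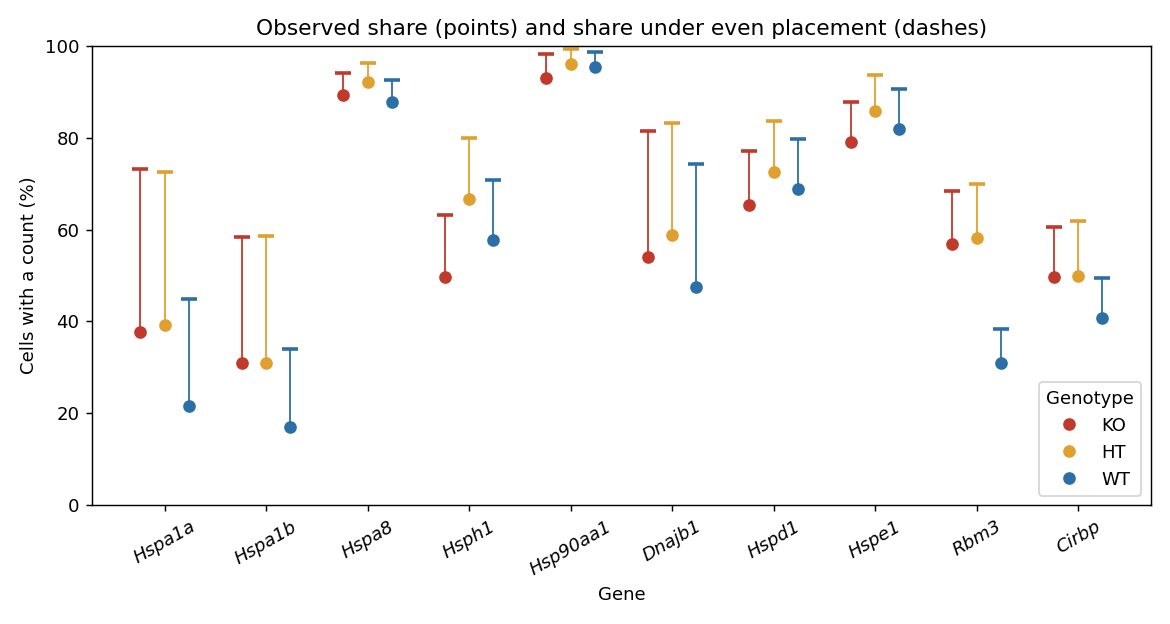
Percent of cells with at least 1 count of each gene in KO, HT and WT (points), joined by a line to the percent under even placement of counts within clusters (dashes). Hspa1a lies at 37.6%, 39.3% and 21.6% against 73.3%, 72.7% and 44.9% under even placement, a wider gap than for Rbm3.

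Other genes of these pathways, in lists written with earlier results of these data known, mostly lay near WT. Of 22 further cytosolic heat shock genes and cofactors, 0 were past the fold in KO over WT, with 11 above and 11 below 0 and a median log2 ratio of 0.01. In HT over WT 1 of the 22 was past it, Dnaja1, a DNAJ partner of HSP70, with 269.7 CPM in KO, 320.0 CPM in HT and 218 CPM in WT. It was higher in HT in 14 of 15 clusters and in KO in 12 of 13. Hspb1, a small heat shock protein gene, had 144 CPM in KO, 202 CPM in HT and 195 CPM in WT, and Hspa2, an HSP70 gene known for its role in sperm cells, had 27.4, 20.7 and 19.3 CPM in the same order. Hsf1, the factor gene, named here for its role and not by the naming rule, had 16.3 CPM in KO, 16.1 CPM in HT and 18.1 CPM in WT.

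None of 6 mitochondrial chaperone and protease genes and none of 8 subunit genes of the cytosolic chaperonin TRiC were past the fold, with median log2 ratios for KO over WT of -0.03 and -0.07. Hspa9, the mitochondrial HSP70 gene, had 90.9 CPM in KO, 89.6 CPM in HT and 95.8 CPM in WT, and Cct7, a TRiC subunit gene, had 147, 169 and 164 CPM in the same order. Of 13 endoplasmic reticulum chaperone genes 0 were past the fold, while 12 were below 0 in KO over WT at a median of -0.14, and 11 in HT over WT at a median of -0.13. Over the genes counted, 37.8% were below 0 in KO over WT and 52.7% in HT over WT. Creld2, a stress-responsive gene of that compartment, had 43.5 CPM in KO, 47.8 CPM in HT and 58.0 CPM in WT, and was higher than WT in 0 of 13 clusters in KO. Manf, which encodes a secreted factor of the same stress response, had 502 CPM in KO, 550.4 CPM in HT and 568 CPM in WT, and Sdf2l1, a chaperone complex subunit, had 161, 206 and 197 CPM in the same order. Of 9 RNA-binding and other genes tied to the cold response, 0 were past the fold in KO over WT at a median of 0.10. In HT over WT 1 was past it on the lower side, Srsf5, a splicing factor gene, with 153 CPM in KO, 124 CPM in HT and 203 CPM in WT. Srsf3, another splicing factor gene, had 230.3 CPM in KO, 235 CPM in HT and 203 CPM in WT. Srsf5 was thus lower where Rbm3 was higher, with log2 ratios over WT of -0.39 in KO and -0.67 in HT. Hnrnpa1, which encodes an RNA-binding protein of the splicing machinery, had 146 CPM in KO, 147.5 CPM in HT and 120.04 CPM in WT and was higher than WT in 13 of 13 and 12 of 15 clusters.

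Immediate early genes, which enzyme digestion can induce, ordered the libraries otherwise than Hspa1a by their summed level. The 17 listed genes summed to 15279 CPM in KO, 12854 CPM in HT and 13634 CPM in WT. Of the 17, 14 were above 0 in KO over WT (median log2 0.21), as were 62.2% of all genes counted. In HT over WT 12 of 17 were below 0 (median -0.08), as were 52.7% of all genes counted. Klf2, a transcription factor gene, was the 1 past the fold over WT, in KO, with 78.9 CPM in KO, 47.9 CPM in HT and 41.8 CPM in WT. Klf6, another factor gene of that family, had 91.9 CPM in KO, 70.9 CPM in HT and 65.3 CPM in WT, and Ier3 had 27.04, 17.96 and 17.5 CPM in the same order. By cluster the rise in KO was uneven. Klf2 was higher than WT in 7 of 13 clusters in KO and in 5 of 15 in HT. These counts were 11 and 10 for Klf6, and 4 and 7 for Ier3. For KO over HT 17 of the 17 were above 0, as were 63.8% of all genes counted. Of the 17, 3 were past the fold on the higher side (Fosb, Klf2 and Klf4), where 0.734% of all genes counted were. Fosb and Klf4 are named for their count alone. Fosb was higher than WT in 10 of 13 clusters in KO and in 0 of 15 in HT, and Klf4 in 9 and 2. Red cell genes, like Hspa1a, were lowest in WT, with 4 of 5 past the fold over WT in both genotypes. In KO over HT 5 of 5 were below 0, as were 36.2% of all genes counted. Hbb-bs had 93.7 CPM in KO, 112 CPM in HT and 11.8 CPM in WT, and Hba-a1 had 38.8, 43.6 and 4.73 CPM in the same order. Hbb-bs was higher than WT in 10 of 13 clusters in KO and in 7 of 15 in HT. The part of handling or of red cells in the differences of the heat shock and cold-inducible genes was not tested.

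Likeness of pattern was measured as Pearson's r of log2(CPM + 10) over the 47 combinations of genotype and cluster with at least 50 cells, among 6329 genes. The combinations share libraries and depth, so r is a description. Hspa1a and Hspa1b were most alike among the 10, with r of 0.94, and Hspa1a with Rbm3 had 0.43. Outside the 10, the nearest to Hspa1a were Chmp3 (0.81), Msl1 (0.81) and Gm15459 (0.81), to Rbm3 the predicted and pseudogene entries Gm7384 (0.76), Rps18-ps5 (0.75) and Gm8213 (0.75), and to Cirbp Psip1 (0.93), Arl3 (0.92) and Bbs4 (0.91). Hspa8 was nearest to Gm8355 (0.99) and Snord14e (0.98), then to Hsp90ab1 (0.95), the constitutive HSP90 gene. Hsph1 was nearest to Ppme1 (0.81) and, on deviations, Cacybp (0.78), Hsp90aa1 to Med9 (0.90), Dnajb1 to Kdm1a (0.82), Hspd1 to Slc25a39 (0.94) and Hspe1 to Atp5e (0.95). On deviations from each cluster's mean, over 44 combinations, Hspa1a with Rbm3 reached 0.71 and Hspa1a with Hspa1b 0.92, and the gene nearest to Rbm3 was the ribosomal pseudogene entry Rps18-ps5 (0.93) and to Hspa1a the ribosomal protein gene Rps15 (0.79).

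Some of these likenesses involve shared sequence. In the last 500 bases of Hspa8, 327 of 410 windows of 91 bases, or 79.8%, also occur in other genes, Gm8355 and Gm15459 among them, so Hspa8 and those entries are uncertain. Snord14e lies inside Hspa8 on the same strand and had 28986 counts in KO, 41261 in HT and 29039 in WT. For Hspe1, 147 of 410 windows, or 35.9%, are shared with AC117239.2, while the other 8 genes shared none. Rbm3os, on the opposite strand over Rbm3, had 120 counts in KO, 142 in HT and 87 in WT, and Gm20481 over Hspa1a had 52, 53 and 25, few beside the 16650, 17105 and 5646 counts of Rbm3 and the 22985, 24144 and 8066 counts of Hspa1a.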

How the data were processed

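Per the labels, single-cell libraries of dissociated pituitaries were made with Chromium 3′ v3 reagents, 1 per genotype. Cell Ranger 5, Seurat 3.1, DESeq2 (version not given) and the builds mm10 and GRCm38 are listed in the submitters' processing notes, without roles. The authors deposited raw counts, each the sum of a gene over the cells of 1 genotype in 1 cluster, with 55403 gene rows and 61 genotype and cluster columns. Whether reads had been collapsed to molecules is not given per the file headers. A second deposited table held the authors' scaled counts, recorded as signal, equal to the counts times 1 factor per column. Of other quantities the authors deposited the number of cells with a count of each gene and the cluster of each cell barcode.

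Rows with 1 symbol were added, leaving 55293 symbols. CPM is relative to all counts of the library or cluster. Intervals at 95% were exact Poisson for CPM, conditional binomial for ratios and Clopper-Pearson for shares, and cover counting error only. With 1 library per genotype no test was run and no p-value computed. Clusters were called by type where at least 3 markers were at 2-fold or more and the list's median fold reached 2.5, a rule set after seeing the data, and lost the name where another type's hormone gene was among the 10 leading genes (cluster 12). The 10 genes, the lists and the markers were chosen with earlier results of these data known. Beside the 10 genes, those named were drawn from the 3 most like each by r. Those of a list were drawn from up to 3 with the largest KO over WT log2 ratio in size at 20 CPM or more. Not every gene that met these rules is named, and a few are named for a reason given where they appear. No counts per single cell were used, so doublets were left as the authors had treated them. Sums, intervals and ratios were computed in Python 3.11.15 with pandas 2.3.3, numpy 2.4.6 and scipy 1.17.1, in scripts tested on simulated data, and promoter sequences were those of RefSeq. Alternatives were another pseudocount, fold, scaling, cell minimum and set of clusters.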

Additional observations from a re-analysis of the deposited data

Results flagged for a closer look

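For 4 genes a log2 ratio over WT reached 0.5 in one direction in 1 cluster and in the other direction in another, with counting intervals on opposite sides of 1. Hspa1a had a KO over WT log2 ratio of 1.93 in endothelial-like cluster 9 and -0.92 in cluster 11. Hsph1 had an HT over WT log2 ratio of 1.37 in endothelial-like cluster 9 and -0.60 in fibroblast-like cluster 15, and Hsp90aa1 had 0.63 and -0.60 in the same clusters. Dnajb1 had a KO over WT log2 ratio of 0.96 in somatotrope-like cluster 1 and -0.65 in cluster 11, and an HT over WT log2 ratio of 0.84 in cluster 15 and -0.82 in cluster 12. Each pair gives the extremes over the compared clusters of the log2 ratio with 10 CPM added. Without that addition the KO over WT ratio of Hspa1a was largest in cluster 1, at 4.38, against 3.95 in cluster 9. The differences between clusters were not tested, since each genotype is a single library.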

How the results depend on the processing

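No paired analysis was possible because there was 1 library of each genotype. Among counts of genes recomputed under other settings, 96 stayed within 1.5 times the count reported and 16 did not, and no called value changed sign. Among single values, which are log2 ratios of the 10 genes and shares of all genes past the fold, 46 stayed and 80 moved. A log2 ratio stayed if its shift was within its counting error, and a share if within 1.5 times. At a log2 fold of 1, 0 of the 10 genes passed in HT over WT in place of 3, while Hspa1a and Rbm3 still passed in KO over WT, and list genes past the fold were 2 on the higher side for KO and for HT over WT in place of 5 each, and 0 in place of 1 on the lower side for HT. With 10 replaced by 50 CPM added, list genes past the fold were likewise 2 and 2. With 1 CPM added or totals without hormone and mitochondrial genes, 2 list genes (Srsf5 and Klf4) lay past the fold on the lower side in HT over WT. With either of those, and with median-of-ratios size factors, 1 of the 10 genes (Hsph1) lay past it on the lower side in KO over HT in place of 0. Without the 6 clusters that met no marker list, 8 list genes were past the fold in KO over WT in place of 5, 1 of the 10 (Hspa1b) passed in KO over HT, Hspa1a joined Rbm3 as higher in each cluster in KO over WT (2 genes), and Hsph1 joined Hsp90aa1 as lower in each in KO over HT (2 genes). With at least 100 cells required, which left 7 clusters, 2 genes, Hspa1a and Rbm3, were higher in each in KO over WT. Scalings moved the median gene by under 0.1 on the log2 scale. Without the filter on counts, 0.482% of symbols were past the fold on the higher side in KO over WT and 0.0553% in HT over WT. Over the alternatives the KO over WT log2 ratio lay between 0.83 and 1.47 for Hspa1a and between 0.77 and 1.32 for Rbm3. Apart from the filter on counts, the share of all genes was not recomputed under these settings, so nothing is read from the counts of genes. Where counts change with the setting, the cause was not tested. Depth is limited in small clusters, such as the 53 WT cells of cluster 11.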
